A study of Mus musculus with 2 samples.

Results

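The guanylate-binding protein genes of the mouse were examined in ureters of E14.5 embryos. Members were the probes on both arrays whose accession belongs to Gbp2, Gbp2b, Gbp3, Gbp4, Gbp5, Gbp6, Gbp7, Gbp8, Gbp9 or Gbp10. This gave 12 of 39429 probes, for 10 genes. Gbp2b and Gbp6 had 2 probes each and the other genes had 1. All 12 probes passed the filter on dim signals, which left 25934 probes and 20629 genes in all. The family was singled out after several of its members had shown large ratios between the groups in these same data, so their ratios are described here without a test.

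Guanylate-binding proteins are large GTPases related to the dynamins. Interferon gamma is their best known inducer, acting in part through the transcription factor IRF1, and the proteins coat the vacuoles and membranes of pathogens inside cells. In the mouse their genes form a cluster on chromosome 3 and another on chromosome 5. Gbp2b, long known as Gbp1, Gbp2, Gbp3, Gbp5 and Gbp7 lie on chromosome 3, and Gbp4, Gbp6, Gbp8, Gbp9 and Gbp10 on chromosome 5, so each cluster held 5 members and 6 probes.

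Each of 2 two-colour arrays compared 1 control RNA with 1 RNA labelled Tbx2/Tbx3cDKO. The embryos labelled knockout carried floxed alleles on both copies of Tbx2 and of Tbx3, together with a Cre inserted at 1 copy of Tbx18, Tbx18(cre/+), which is active in progenitors of the ureteric mesenchyme. Controls had no Cre, with Tbx18(+/+), and carried 1 floxed allele each of Tbx2 and Tbx3 with the other allele left unspecified, Tbx2(fl/?) and Tbx3(fl/?). All embryos were of the NMRI strain at E14.5. RNA of female embryos was on the first array, with the labelled knockout in AlexaFluor647, and RNA of male embryos on the other, with the labelled knockout in AlexaFluor555. An effect of sex and one of dye orientation therefore cannot be told apart. The labels do not say how many embryos gave each RNA, and 2 arrays limit the precision.

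Of all spots, 64.3% to 71.6% were well above background in a sample, and 0 were saturated. Tbx3 fell by 1.09 on the log2 scale, ± 0.10 (SD, n = 2 pairs; limma adjusted p = 0.000862), and Tbx18 was at 0.15 ± 0.0011 (adjusted p = 0.379). Tbx2 rose, at 0.86 ± 0.12 (adjusted p = 0.00236), against its label. No source used here places these probes inside or outside the deleted parts, so the samples are called labelled knockout throughout. The urothelial markers (10 of 10) and the mesenchymal markers (6 of 6) passed the filter on dim signals.

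The promoters of the 5 genes on chromosome 3 are shown because the elements through which interferons act are short and can be read in them. Only these members had a promoter window. Gbp8 on chromosome 5 was also higher in both pairs and had none, so the motifs cannot be set against the ratios of the family. The lines give the 250 bases before the gene start (RefSeq, GRCm38.p6). Capitals mark 2 motifs, the interferon-stimulated response element, searched as 2 copies of GAAA set 2 bases apart (TTTC in place of GAAA on the other strand), and the gamma-activated site TTCNNNGAA, which reads the same on both strands. The first is bound by IRF and ISGF3 complexes, and the second is an element of the interferon gamma response.
Gbp5 (chr3:142496684-142496933, + strand): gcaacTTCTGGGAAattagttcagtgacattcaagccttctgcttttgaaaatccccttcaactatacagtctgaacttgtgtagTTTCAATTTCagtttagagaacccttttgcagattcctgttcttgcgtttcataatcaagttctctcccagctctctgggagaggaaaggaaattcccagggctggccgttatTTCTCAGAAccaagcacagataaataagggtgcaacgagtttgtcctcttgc
Gbp7 (chr3:142530086-142530335, + strand): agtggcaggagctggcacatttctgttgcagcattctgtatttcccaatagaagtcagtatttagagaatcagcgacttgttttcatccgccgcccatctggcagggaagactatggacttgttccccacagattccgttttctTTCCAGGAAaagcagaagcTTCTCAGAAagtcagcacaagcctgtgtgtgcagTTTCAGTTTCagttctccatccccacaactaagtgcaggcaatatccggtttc
Gbp3 (chr3:142559794-142560043, + strand): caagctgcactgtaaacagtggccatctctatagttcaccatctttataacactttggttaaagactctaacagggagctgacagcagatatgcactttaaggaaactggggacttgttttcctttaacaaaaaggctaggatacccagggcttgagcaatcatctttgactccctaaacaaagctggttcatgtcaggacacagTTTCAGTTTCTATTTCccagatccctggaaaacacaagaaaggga
Gbp2b (chr3:142594597-142594846, + strand): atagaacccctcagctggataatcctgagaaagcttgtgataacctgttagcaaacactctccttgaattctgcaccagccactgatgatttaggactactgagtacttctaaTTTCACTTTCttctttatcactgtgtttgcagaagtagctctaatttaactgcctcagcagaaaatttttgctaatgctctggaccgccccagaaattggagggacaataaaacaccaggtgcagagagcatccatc
Gbp2 (chr3:142620413-142620662, + strand): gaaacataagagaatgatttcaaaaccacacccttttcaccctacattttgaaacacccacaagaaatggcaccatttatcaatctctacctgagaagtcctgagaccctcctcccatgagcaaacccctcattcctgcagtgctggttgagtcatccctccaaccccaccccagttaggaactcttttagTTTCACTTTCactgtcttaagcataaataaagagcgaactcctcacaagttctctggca

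The response element was found before the start of all 5 genes. It began 165 bases before the start of Gbp5, 53 before that of Gbp7, 137 before that of Gbp2b and 59 before that of Gbp2. Gbp3 had matches that began 45 and 39 bases before the start and overlapped each other. Of 32851 promoter windows of 300 bases (250 before and 50 after a start), 3.44% held this motif. TTCNNNGAA was found in Gbp5, 245 and 52 bases before the start, and in Gbp7, 106 and 87 bases before it, and 8.30% of all windows held it. Both motifs together, as in Gbp5 and Gbp7, were found in 0.454% of all windows. Another window given for Gbp3 held neither motif. The T-box core GGTGTGA, which T-box factors such as TBX2 and TBX3 can bind, was searched on both strands, was found in 0 of the 6 windows of these genes, and was present in 3.98% of all windows. A match describes letters in a window, and a lack of one says nothing of a factor. The promoter table listed no window for Gbp4, Gbp6, Gbp8, Gbp9 and Gbp10.

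On chromosome 3, Gbp2b, Gbp3 and Gbp2 were at least 2-fold higher in the ureters labelled knockout of each pair, Gbp7 was higher by less on the female array, and Gbp5 was slightly higher. On chromosome 5, Gbp8 was slightly higher in both pairs and the other 4 genes had mean log2 ratios between -0.033 and 0.061. The median log2 ratio was 1.70 for the chromosome 3 cluster (1.59 on the female array and 1.82 on the male array) and 0.054 for the chromosome 5 cluster (-0.072 and 0.16). The median over all 20629 genes was -0.0021. Of the 10 members, 3 reached 2-fold higher levels in each pair, against 0.208% of all genes. In the limma fit over all genes (adjusted p under 0.05) 4 members were called higher, against 1.87% of all genes, and 0 lower, against 1.81%. These 4 were Gbp2, Gbp2b, Gbp3 and Gbp7. Since the family was picked for such ratios, nothing is read from these counts. In RNA of whole ureters, more cells that express a gene and more RNA per cell cannot be told apart.

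Gbp2b gave the highest ratio of the family. The GTPase it encodes has long been known as an abundant product of interferon-treated mouse cells. Its brighter probe had log2 normalised intensities of 9.47 in the control and 11.26 in the labelled knockout of the female array, and of 8.96 and 11.84 on the male array. Both labelled knockout samples lay above both controls. The ratio was 3.46-fold on the female array and 7.33-fold on the male array, a mean log2 ratio of 2.33 ± 0.77 (SD, n = 2 pairs). Within an array the 4 spots of the probe gave log2 ratios from 1.72 to 1.86 on the female array and from 2.85 to 2.89 on the male array. The pairs thus differed by more than the spread between spots, with both a lower control and a higher labelled knockout on the male array. The second Gbp2b probe had levels of 9.26 and 11.01 on the female array and of 8.83 and 11.42 on the male array. It gave 3.36-fold and 6.02-fold, a mean log2 ratio of 2.17 ± 0.59, so both probes showed a larger ratio on the male array. By its mean log2 ratio Gbp2b was in place 2 of 20629 genes.

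Gbp3, a neighbour of Gbp2b and another member of the antimicrobial group, had levels of 9.71 and 11.37 in control and labelled knockout of the female array and of 9.49 and 11.57 on the male array. These are 3.17-fold and 4.22-fold, with a mean log2 ratio of 1.87 ± 0.29 (SD, n = 2 pairs). The groups did not overlap, and the gene was in place 9 of all genes. Gbp2, which is attached to membranes by a lipid anchor and is needed in mice to control the parasite Toxoplasma gondii, had levels of 12.15 and 13.74 on the female array and of 12.09 and 13.90 on the male array. It was 3.01-fold and 3.52-fold higher, a mean log2 ratio of 1.70 ± 0.16, in place 15. Of these 3 genes Gbp2 had the smallest difference between the pairs. The log2 ratios ran from 1.59 to 1.82 for Gbp2, 1.66 to 2.08 for Gbp3 and 1.79 to 2.87 for Gbp2b, so their ranges over the pairs overlapped. Within each pair Gbp2b was highest, then Gbp3, then Gbp2, also with the second Gbp2b probe, at 1.75 and 2.59.

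Gbp7, which in macrophages helps to bring the NADPH oxidase to vacuoles with bacteria, had levels of 9.57 and 10.30 on the female array and of 9.26 and 10.32 on the male array. It was 1.65-fold and 2.08-fold higher, with a mean log2 ratio of 0.89 ± 0.24 (SD, n = 2 pairs), and lay below Gbp2b, Gbp3 and Gbp2 in both pairs. Its labelled knockout levels were nearly alike in the pairs and its control level was lower on the male array. Gbp5, which promotes the assembly of the NLRP3 inflammasome, had a probe close to background. Its levels were 7.04 and 7.27 on the female array and 6.91 and 7.19 on the male array, a mean log2 ratio of 0.26 ± 0.038. In the male control 0% of its spots were well above background, against 100% in the female control and 75% and 100% in the labelled knockouts. It passed the filter only through the labelled knockout samples, so the filter favoured a ratio above 0. Its 4 spots of the female array ranged from -0.00073 to 0.46.

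**Figure D1:**
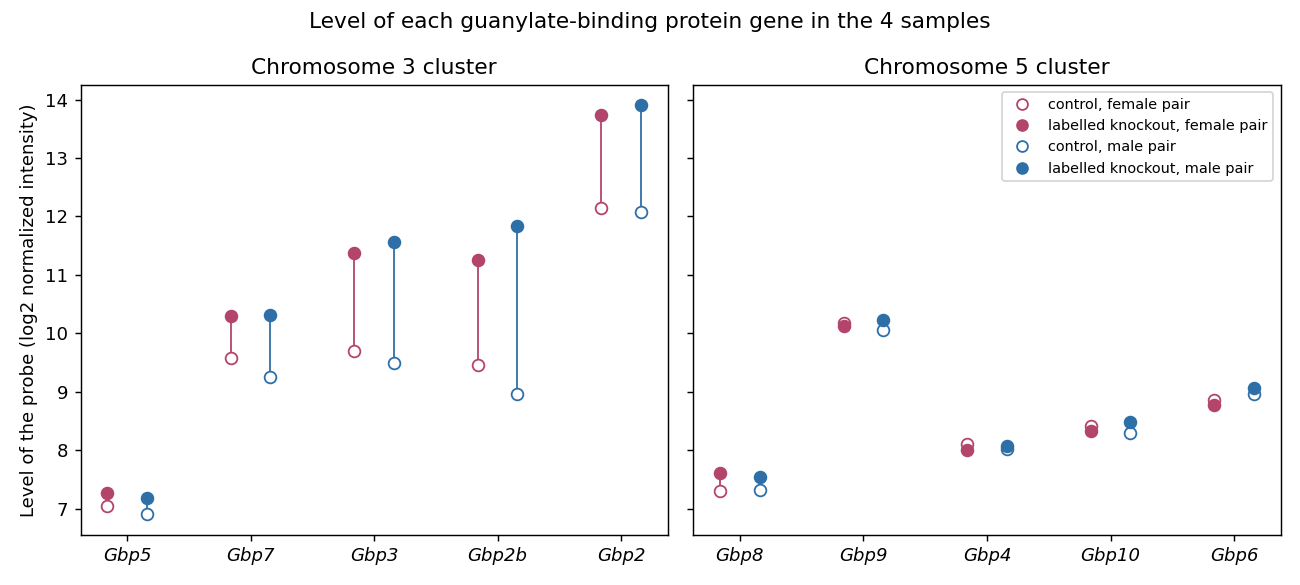
Level of the probe used for each guanylate-binding protein gene in the 4 samples (y axis, log2 normalised intensity), for the chromosome 3 cluster (left) and the chromosome 5 cluster (right). Open points are controls, filled points labelled knockouts, red the female and blue the male pair, and a line joins the samples of 1 array. Levels of different probes are not comparable. Gbp2b runs from 9.47 to 11.26 on the female array and from 8.96 to 11.84 on the male array, while Gbp9, Gbp4, Gbp10 and Gbp6 have overlapping groups.

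The genes on chromosome 5 encode GTPases of the same family. Gbp8 had levels of 7.31 and 7.61 on the female array and of 7.32 and 7.55 on the male array, a mean log2 ratio of 0.27 ± 0.051 (SD, n = 2 pairs). Both labelled knockouts were above both controls, on a dim probe with 75% of spots well above background in the male control. Over all genes 17.8% had both labelled knockout levels above both control levels, as 6 of the 10 members did, and 17.7% had both below, as 0 members did. The 6 include Gbp5, which passed the filter only through the labelled knockouts. The family was also picked for high ratios, so nothing is read from these counts. For Gbp9 the levels were 10.19 and 10.13 on the female array and 10.06 and 10.22 on the male array, so the groups overlapped. Its mean log2 ratio was 0.054 ± 0.15.

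Gbp10 had levels of 8.41 and 8.34 on the female array and of 8.29 and 8.49 on the male array. Gbp4 had 8.12 and 8.01, then 8.03 and 8.07. The groups overlapped for both genes, and their mean log2 ratios were 0.061 ± 0.19 and -0.033 ± 0.10 (SD, n = 2 pairs). Gbp6 had levels of 8.86 and 8.78 on the female array and of 8.97 and 9.07 on the male array with its brighter probe, a mean log2 ratio of 0.014 ± 0.12. The dimmer probe gave 8.47 and 8.31, then 8.52 and 8.66, and a mean of -0.0060 ± 0.22. Both Gbp6 probes were slightly below 0 on the female array and slightly above it on the male array.

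**Figure D2:**
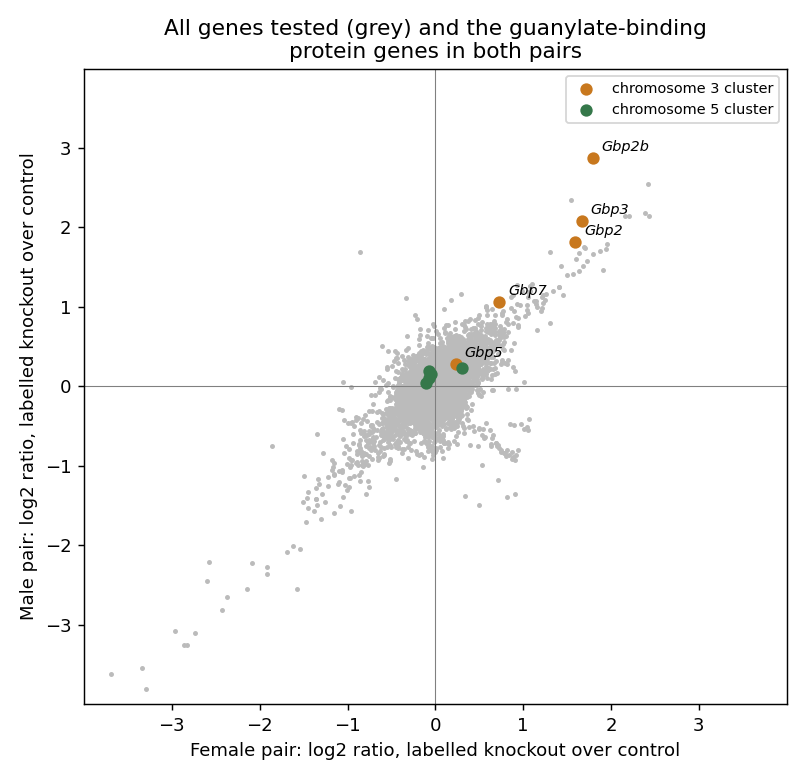
Log2 ratio of labelled knockout over control on the female array (x axis) and the male pair (y axis) for all 20629 genes tested (grey), with the chromosome 3 cluster in orange and the chromosome 5 cluster in green. Gbp2b, at 1.79 and 2.87, lies at the upper right edge, Gbp3 and Gbp2 beside it, and the chromosome 5 genes lie in the cloud around 0.

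The authors' deposited table, which holds a signed fold for each probe and pair, gave the same order of clusters. In the authors' deposited table Gbp2b was at 3.57 and 8.74 with 1 probe and at 3.72 and 6.97 with the other, on the female and male arrays. The authors' deposited table had Gbp3 at 3.41 and 4.40, Gbp2 at 3.08 and 3.56, and Gbp7 at 1.74 and 2.25. For Gbp5 and Gbp8 the authors' deposited table had 1.35 and 1.21, and 1.36 and 1.36. Folds of the other chromosome 5 genes in the authors' deposited table lay between -1.15 and 1.20. When the fit over all genes was run on these values, 2 members were called higher (Gbp2 and Gbp3), and with robust eBayes on the loess-normalised ratios 3 were (Gbp2, Gbp3 and Gbp7).

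Along chromosome 3 the genes follow each other as Gbp5, Gbp7, Gbp3, Gbp2b and Gbp2, and the mean log2 ratios along that order were 0.26, 0.89, 1.87, 2.33 and 1.70. Neighbours were compared in the order of the RefSeq gene table, taking the 5 nearest tested genes on each side of each cluster. Of these 20 genes, 3 rose and 1 fell in the limma fit (adjusted p under 0.05), which is 20% against 3.68% of all genes called in either direction. The first tested gene after Gbp2, Kyat3, a kynurenine aminotransferase, rose by 0.64 ± 0.021 on the log2 scale (SD, n = 2 pairs; limma adjusted p = 0.00488). The tested gene after it, the general transcription factor Gtf2b, was at -0.028 ± 0.011 (adjusted p = 0.959). On the other side the nearest tested gene, Pdlim5, a PDZ and LIM domain protein, was at 0.12 ± 0.093 (adjusted p = 0.596). Beyond it the BMP receptor Bmpr1b rose, at 0.61 ± 0.13 (adjusted p = 0.00938), and the netrin receptor Unc5c fell, at -0.51 ± 0.033 (adjusted p = 0.0119). Beside the chromosome 5 cluster the nearest tested genes were Zfp951, a zinc finger protein, at -0.047 ± 0.057 (adjusted p = 0.915) and Lrrc8b, a subunit of volume-regulated anion channels, at -0.013 ± 0.22 (adjusted p = 0.989). Further out Spp1, which encodes osteopontin, rose, at 0.70 ± 0.11 (adjusted p = 0.00533). The median of the 10 neighbours was 0.027 on chromosome 3 and 0.010 on chromosome 5. With the scanner program's processed signals, with each array centred on its median in place of loess, and with the deposited values the call of Unc5c ended, and that of Bmpr1b ended with the last 2 of these. Gm40158, inside the chromosome 3 cluster, and Gm9640 and Gm31785, inside the other, had no probe named through the gene table.

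**Figure D3:**
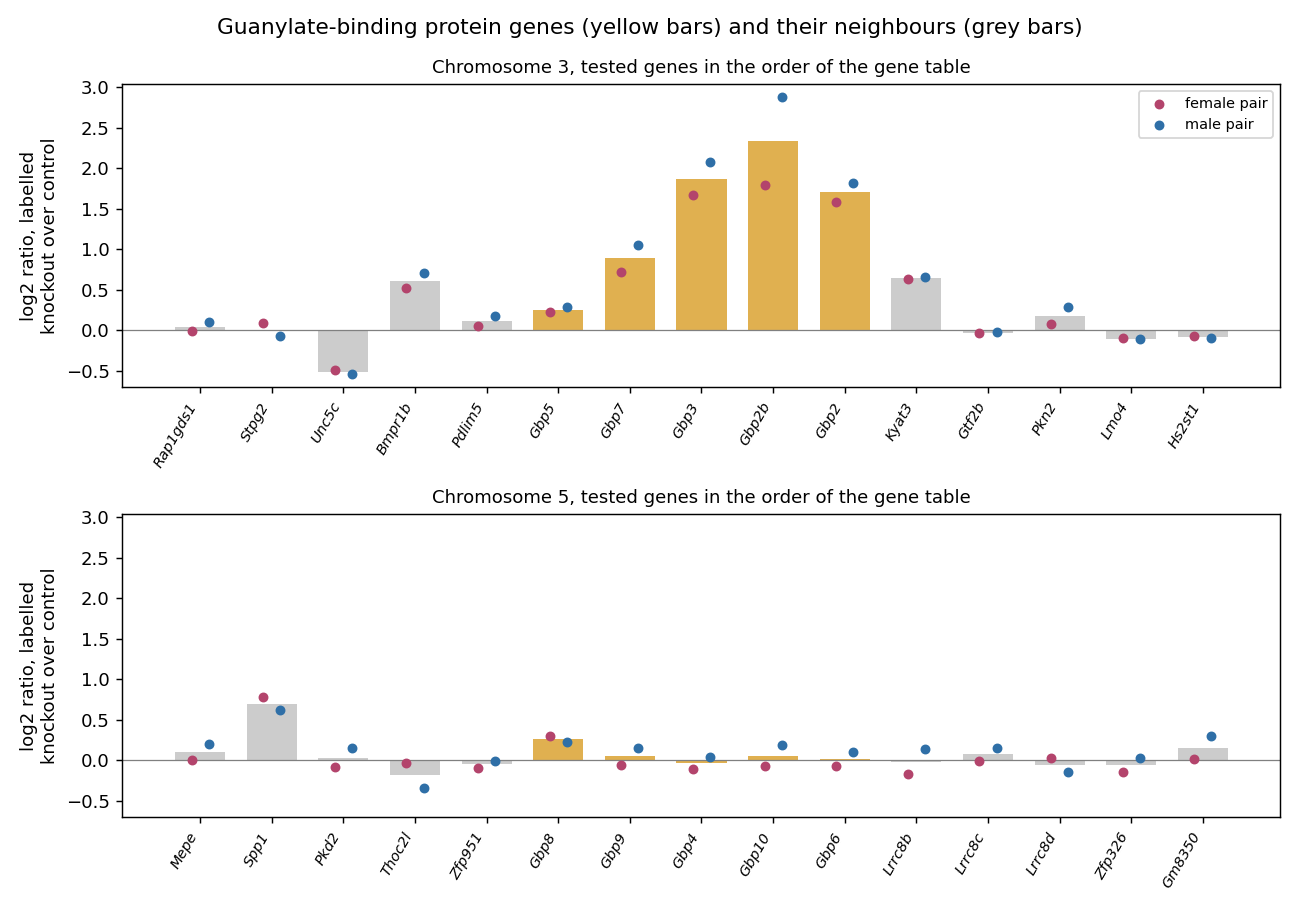
Mean log2 ratio of labelled knockout over control (bars, y axis) for the guanylate-binding protein genes (yellow) and their 5 nearest tested neighbours on each side (grey), in the order of the gene table on chromosome 3 (top) and chromosome 5 (bottom), with the female pair in red and the male pair in blue. Ratios climb from Gbp5 at 0.26 to Gbp2b at 2.33, Gbp2 is at 1.70, and Kyat3, the first tested gene after it, is at 0.64.

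The rest of the interferon pathway was measured in the same fit. Of 102 listed genes, 80 were tested, 5 rose, 2 fell and 73 did not pass, which is 8.75% called against 3.68% of all genes, and their median log2 fold change was 0.050. With median centring 3 of these genes were called and with the deposited values 2. Ifng, the ligand best known to induce this family, was not well above background in any sample, with 0% of its spots in each of the 4, and the same held for Ifnb1. Of the receptors of interferon gamma, Ifngr1 was at -0.065 ± 0.020 (SD, n = 2 pairs; limma adjusted p = 0.838) and Ifngr2 at 0.068 ± 0.092 (adjusted p = 0.841). Those of type I interferons, Ifnar1 and Ifnar2, were at -0.053 ± 0.074 and 0.041 ± 0.026. Of 6 receptors tested, 0 passed in limma, and 0 had an unadjusted p under 0.05.

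The receptor kinases Jak1, Jak2 and Tyk2 were at 0.064, -0.034 and 0.054, and 0 of the 3 passed in limma, with 0 at an unadjusted p under 0.05 (adjusted p from 0.841 to 0.949). Stat2 and Irf9, subunits of the ISGF3 complex, were at -0.027 ± 0.068 (SD, n = 2 pairs) and -0.050 ± 0.0099. Irf1, a direct activator of these GTPase genes, was at -0.037 ± 0.0036 (limma adjusted p = 0.937). Of 9 transcription factors tested, 0 passed in limma, and their values lay between -0.050 and 0.23. At an unadjusted p under 0.05 there were 2. Over all genes such p-values were more common than the threshold alone would give. A gene at an unadjusted limma p of 0.0489 had an adjusted p of 0.349. The share of all genes under 0.05 was not counted, so nothing is read from these 2.

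Of 10 other interferon-inducible GTPases tested, 0 rose and 2 fell. The immunity-related GTPases Irgm1, Irgm2 and Igtp, which act with guanylate-binding proteins at vacuoles, were at -0.031, 0.037 and -0.024 and did not pass. Iigp1, of the same family, fell by 1.07 on the log2 scale, ± 0.12 (SD, n = 2 pairs; limma adjusted p = 0.00102), and Gm4951, an interferon-inducible GTPase gene, fell by 0.98, ± 0.31 (adjusted p = 0.00692). The 30 other interferon-induced genes had a median of 0.17, and 15 of them had an unadjusted p under 0.05. The share of all genes under that threshold was not counted, so this count is not set against one. After adjustment 2 rose, Xaf1, an apoptosis-related factor, at 0.79 ± 0.16 (adjusted p = 0.00455) and Ifi35 at 0.46 ± 0.078 (adjusted p = 0.0199). Widely used response genes such as Isg15, at 0.23 (adjusted p = 0.170), and Ifit3, at 0.11 (adjusted p = 0.583), did not pass. Of 15 antigen presentation genes 3 rose. H2-Aa was at 0.49 ± 0.076, H2-Ab1 at 0.42 ± 0.0064 and the invariant chain Cd74 at 0.39 ± 0.091, with adjusted p from 0.0163 to 0.0371. These belong to the class II pathway, of which H2-Eb1, at -0.088 ± 0.11 (adjusted p = 0.766), did not pass, and its activator Ciita had 0% of spots well above background in each sample. B2m and H2-K1 of the class I pathway were at 0.0052 and 0.061 and did not pass. Ifi35, Cd74, H2-Aa and H2-Ab1 lost their calls with median centring and with the deposited values, and Ifi35 and Cd74 also with the processed signals. Gm4951 lost its call with the deposited values, and Xaf1 when the probes of a gene were averaged. Other calls were gained. Oasl2, at 0.34 (limma adjusted p = 0.0504), was called higher with no background subtraction, pixel medians, averaged probes and robust eBayes. It was also called with no filter on dim signals and with each probe counted by itself. Gm4841 was called lower with no background subtraction, and Nlrc5 lower with no filter on dim signals.

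**Figure D4:**
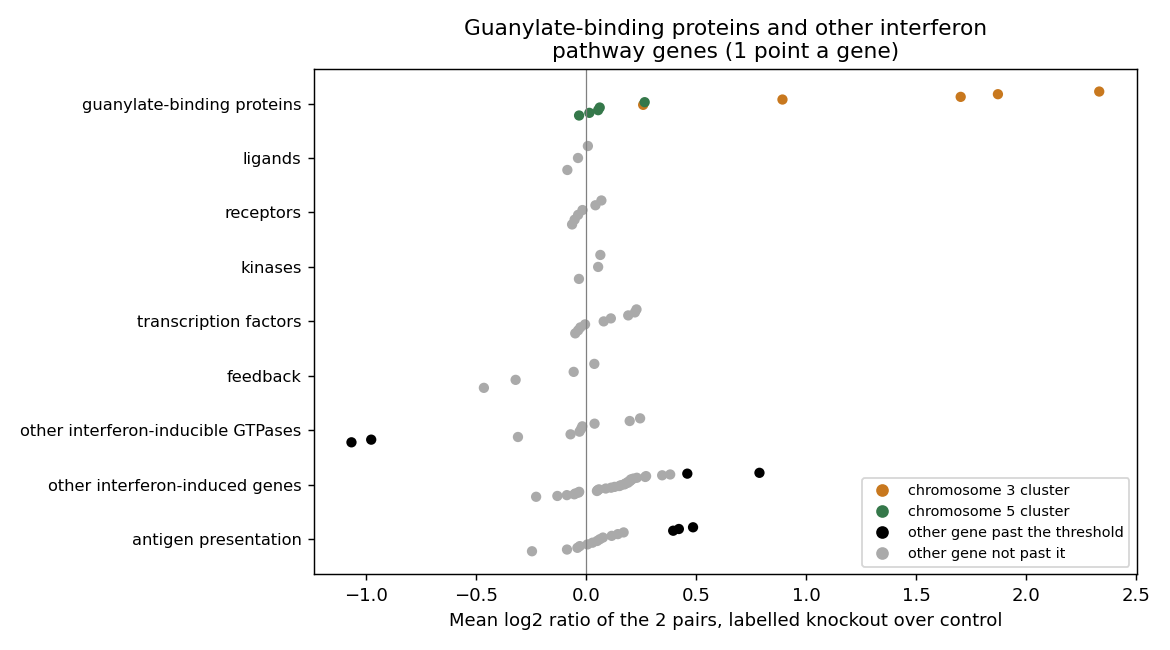
Mean log2 ratio of the 2 pairs (x axis, labelled knockout over control) for the guanylate-binding protein genes (top line, chromosome 3 in orange, chromosome 5 in green) and for 80 other interferon pathway genes by role (1 point a gene, black past the limma threshold, grey not past it). Receptors, kinases and transcription factors lie between -0.065 and 0.23, and Iigp1 at -1.07 is the lowest of the other GTPases.

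Guanylate-binding proteins can be expressed in many cell types, leukocytes and endothelium among them, so markers of the cells a ureter could hold were measured. Of 15 macrophage and leukocyte genes 0 passed in limma and 6 had an unadjusted p under 0.05, with a median log2 fold change of 0.15. Their summed level (linear normalised intensity) was 63536 to 64749.9 in the controls and 67436 to 68596.7 in the labelled knockouts. The 11 endothelial genes, of which 0 passed and 4 had an unadjusted p under 0.05, had a median of 0.15 and summed levels of 123669 to 124009 and of 131959 to 152610. Such sums add different probes and lean on the bright ones. Among these, Egfl7 had log2 ratios of -0.20 on the female array and 0.85 on the male array. Of the lymphocyte genes 3 were tested (Cd3e, Cd4 and Nkg7), with 0 past the threshold, 0 at an unadjusted p under 0.05, and a median of 0.050. Cd3g, Cd8a, Cd79a and Klrb1c did not reach the filter on dim signals. Summed lymphocyte levels were 2539.73 to 2828.83 in the controls and 2635.78 to 2811.14 in the labelled knockouts. Urothelial genes had a median of -0.041 with 0 of 10 called and 4 at an unadjusted p under 0.05. Their summed levels were 188417 to 203053 in the controls and 177124 to 182660 in the labelled knockouts. How many of all genes had an unadjusted p under 0.05 was not counted, so nothing is read from these counts of markers. All 6 smooth muscle genes fell, with a median of -3.05. Of 6 mesenchymal genes 1 rose and 2 fell, and of 3 liver genes 2 fell. The leukocyte and endothelial medians were above 0, as was that of the chromosome 3 genes, and their part in the values of those genes was not tested.

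The genes with a standard symbol, other than members, whose log2 ratios in the 2 pairs lay nearest to the median profile of Gbp2b, Gbp3 and Gbp2 (1.66 for the female array, 2.08 for the male) were picked by Euclidean distance over the 2 pairs. Probes with no standard gene symbol were left out, and some of these lay as near or nearer. The named genes were the GABA receptor subunit Gabra2 at a distance of 0.33, the neural adhesion protein Lsamp at 0.34, the cytochrome c oxidase subunit Cox8b at 0.41, the urinary protein Mup18 at 0.43 and the cytochrome P450 Cyp2e1 at 0.48. Their mean log2 fold changes lay between 1.60 and 1.87, and on the male array all 5 were below the Gbp profile, at 1.61 to 1.79.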

How the data were processed

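The 2 Agilent arrays of mouse ureter RNA were quantified in Agilent Feature Extraction (version 10.7.3.1 in the submitters' processing notes). Per the file headers, each scanner file gives spot and local background intensity for both channels, as well as processed intensity after background subtraction and dye normalization. The authors' deposited value table holds a signed fold score per probe and array, with its making not stated. Its log2 values correlated with the processed signals at 0.982 and 0.985 over 24806 probes well above background in all samples, so it was read as labelled knockout over control. Both columns had a median of 1, and its floor and centring stay unknown. The flags for spots well above background and for non-uniform spots were used as deposited.

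Mean intensities were corrected with normexp (offset 50) and then loess-normalized array by array, giving weight 0 to control spots and to 1 filler probe. Non-uniform spots were left out, and the 4 spots of a probe were averaged. A probe was kept where more than 0.5 of its spots were well above background in both labelled knockouts or in both controls. The offset shrinks ratios of dim probes. Levels per sample were taken after Aquantile normalization between arrays. Accessions were named through a RefSeq table of GRCm38.p6 (28328 of 39429 probes), and the build behind the array was not stated. The brightest probe stood for a gene. Guanylate-binding protein genes are similar in sequence, and how far probes share signal was not tested. Log2 ratios were fitted in R 4.3.3 with limma 3.58.1 and Benjamini-Hochberg adjustment over 20629 genes, with 1 residual and 5.24 prior degrees of freedom. The pairs are separate samples by their labels, so p-values measure only the spread between these samples, which may be technical. Both scanner files carry the same scan time.

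The members and the lists were chosen with earlier results of these data known. Named were all members, Tbx2, Tbx3 and Tbx18, fixed receptors, kinases and transcription factors of the interferon pathway and its called genes, the nearest and the called neighbours, and the 5 genes nearest in profile. Irgm1, Irgm2, Igtp, Isg15, Ifit3, B2m, H2-K1, Ifnb1, Ifng, H2-Eb1, Ciita, Gtf2b, Oasl2, Gm4841, Nlrc5 and Egfl7 were named after their values were seen. Some genes of the lists are not reported here. Marker lists covered macrophages and other leukocytes, lymphocytes, endothelium, urothelium, smooth muscle, ureteric mesenchyme and liver. Alternatives were other background, signal, normalization, filter, outlier and probe choices, the deposited table, robust eBayes and each replicate left out.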

Additional observations from a re-analysis of the deposited data

Results flagged for a closer look

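Some ratios had opposite signs on the female and male arrays. No test was made of these differences (male minus female), and the arrays differ in dye orientation too. On chromosome 5, Gbp9 went from -0.050 on the female array to 0.16 on the male one, a difference of 0.21. Gbp10 went from -0.072 to 0.19, differing by 0.27. Gbp6 went from -0.074 to 0.10, differing by 0.18, and Gbp4 from -0.11 to 0.040, differing by 0.15. These 4 genes were all lower on the female array, and 44.2% of all genes had opposite signs on the arrays. The median of the chromosome 5 cluster differed by 0.23.

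Among other genes, Lrrc8b had -0.17 and 0.14, differing by 0.31, and Stat2 had -0.075 and 0.021, differing by 0.096. The median of the 10 neighbours of the chromosome 5 cluster was -0.019 and then 0.15, differing by 0.16, and that of all 20 neighbours -0.0083 and then 0.12, differing by 0.13. The urothelial median was 0.042 and then -0.048, a difference of -0.090.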

How the results depend on the processing

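Gbp2, Gbp2b, Gbp3, Gbp7 and Gbp8 had mean log2 ratios above 0 under all 11 alternatives that used both pairs, and Gbp5 under the 10 that kept it. So did Gbp9 (0.050 to 0.096) and Gbp10 (0.057 to 0.081), whose pairs had opposite signs. Gbp2 ranged from 1.70 to 1.73, Gbp3 from 1.86 to 1.99, Gbp2b from 2.17 to 2.52 and Gbp7 from 0.86 to 0.98. The dim probes moved most, Gbp5 to 0.64 and Gbp8 to 0.51 with the processed signals, and to 0.36 and 0.44 with the deposited values. A filter that asked for signal in all samples removed Gbp5. The count of members at least 2-fold higher in both pairs was 3 under every alternative but 1, and 4 with each probe counted by itself.

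Over all genes, 759 were called, against 463 with the processed signals, 242 with median centring and 285 with the deposited values. Interferon pathway genes called were 7, against 3 with median centring, 2 with the deposited values and 11 with each probe counted by itself. Neighbours called were 4, against 2 with median centring and 2 with the deposited values. Their causes were not tested. With 1 pair left out the chromosome 3 median ranged from 1.59 to 1.82, the chromosome 5 median from -0.072 to 0.16 and the count of members from 3 to 4. Counts of limma calls could not be fitted from 1 array.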
